A study of Mus musculus with 4 samples.

Results

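Non-clustered protocadherins are single-gene cadherins, each made by its own locus, and 8 of them were followed here on maps of N6-methyladenosine (m6A) in the mouse brain: Pcdh1, Pcdh7, Pcdh8, Pcdh9, Pcdh10, Pcdh17, Pcdh19 and Pcdh20. They were taken by name, with earlier results of these data known, out of 21853 protein-coding genes of the GENCODE M21 annotation (GRCm38/mm10). Every deposited peak that touched an exon of any of their transcripts was kept. The material was whole brain of C57BL/6J mice at 4 weeks of age. The design text names Prrc2a flox/flox animals without stating a Cre driver, so whether either m6A sample carried a Cre is unknown. No treated group exists. Messenger RNA was fragmented and pulled down with a polyclonal anti-m6A antibody in 2 biological replicates, and read against input RNA. A peak is a stretch where pulled-down reads exceeded input reads, and its fold enrichment is that excess as a linear ratio. No test between conditions is possible with this design, so values are given for both replicates and read against the same measures in other genes.

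m6A is laid down on messenger RNA by a methyltransferase complex that prefers a GGAC core, most often within GGACT, and it is read by proteins that set the stability, transport or translation of the transcript. It is known to gather in long exons and around stop codons. Protocadherins hold cells together through extracellular cadherin repeats stiffened by calcium, followed by 1 membrane-spanning segment and a cytoplasmic tail. The delta-1 group (Pcdh1, Pcdh7, Pcdh9 and Pcdh11x) can bind protein phosphatase through the tail, and the delta-2 group (Pcdh8, Pcdh10, Pcdh17, Pcdh18 and Pcdh19) links to the WAVE actin-regulating complex. Many of their genes are unusual in packing most or all of the ectodomain, which most cadherin genes spread over many short exons, into a single long exon.

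All 8 genes carried peaks over exons in both replicates, with 43 peaks in replicate 1 and 40 in replicate 2. The lists as a whole held 38533 and 30134 peaks. Of the exonic protocadherin peaks, 93.0% in replicate 1 and 92.5% in replicate 2 met a peak of the second list over at least 1 bp. The shares of all peaks were 60.01% and 77.0%, but these include peaks outside exons. Of peaks in the 8 genes that touched no exon, 5 of 34 in replicate 1 and 5 of 6 in replicate 2 had a counterpart. The exonic overlaps gave 40 shared intervals, that is, stretches inside a peak of both replicates, among 23901 in the whole series. For comparison, 45.5% of all protein-coding genes had at least 1 shared interval over an exon. Replicate 1 gave the higher fold in 34 of the 40 shared intervals and replicate 2 in 6, with a median ratio of 1.25, and the shared peaks of the whole lists had medians of 3.01 and 2.33. Absolute folds of different genes or exons were therefore compared only within a replicate. Of 11 genes typical of brain cells, 10 had a shared interval, and Gad1 had none. Of 6 genes typical of other organs, 1 did (Myh6).

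The exon structure sets how the intervals are described. In 6 of the 8 genes (Pcdh7, Pcdh8, Pcdh9, Pcdh10, Pcdh17 and Pcdh19) the exon with the start codon was also the exon with most coding sequence, and it held between 2147 coding bases in Pcdh19 and 3174 in Pcdh7. In Pcdh20 the start codon lies in exon 2, which holds 132 coding bases, and the long coding exon is exon 3 with 2724. In Pcdh1 the transcript with the longest coding sequence is annotated without a start codon, its first coding exon holds 420 coding bases and the long coding exon is exon 2 with 2196. The long exon held from 62.5% of the coding sequence in Pcdh19 to 95.4% in Pcdh20. In all 8 translated transcripts the predicted membrane-spanning segment, the most hydrophobic window of 19 residues after the last calcium-binding motif, fell in that exon, and all calcium-binding motifs did too except 1 of the 5 in Pcdh1.

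**Figure D1:**
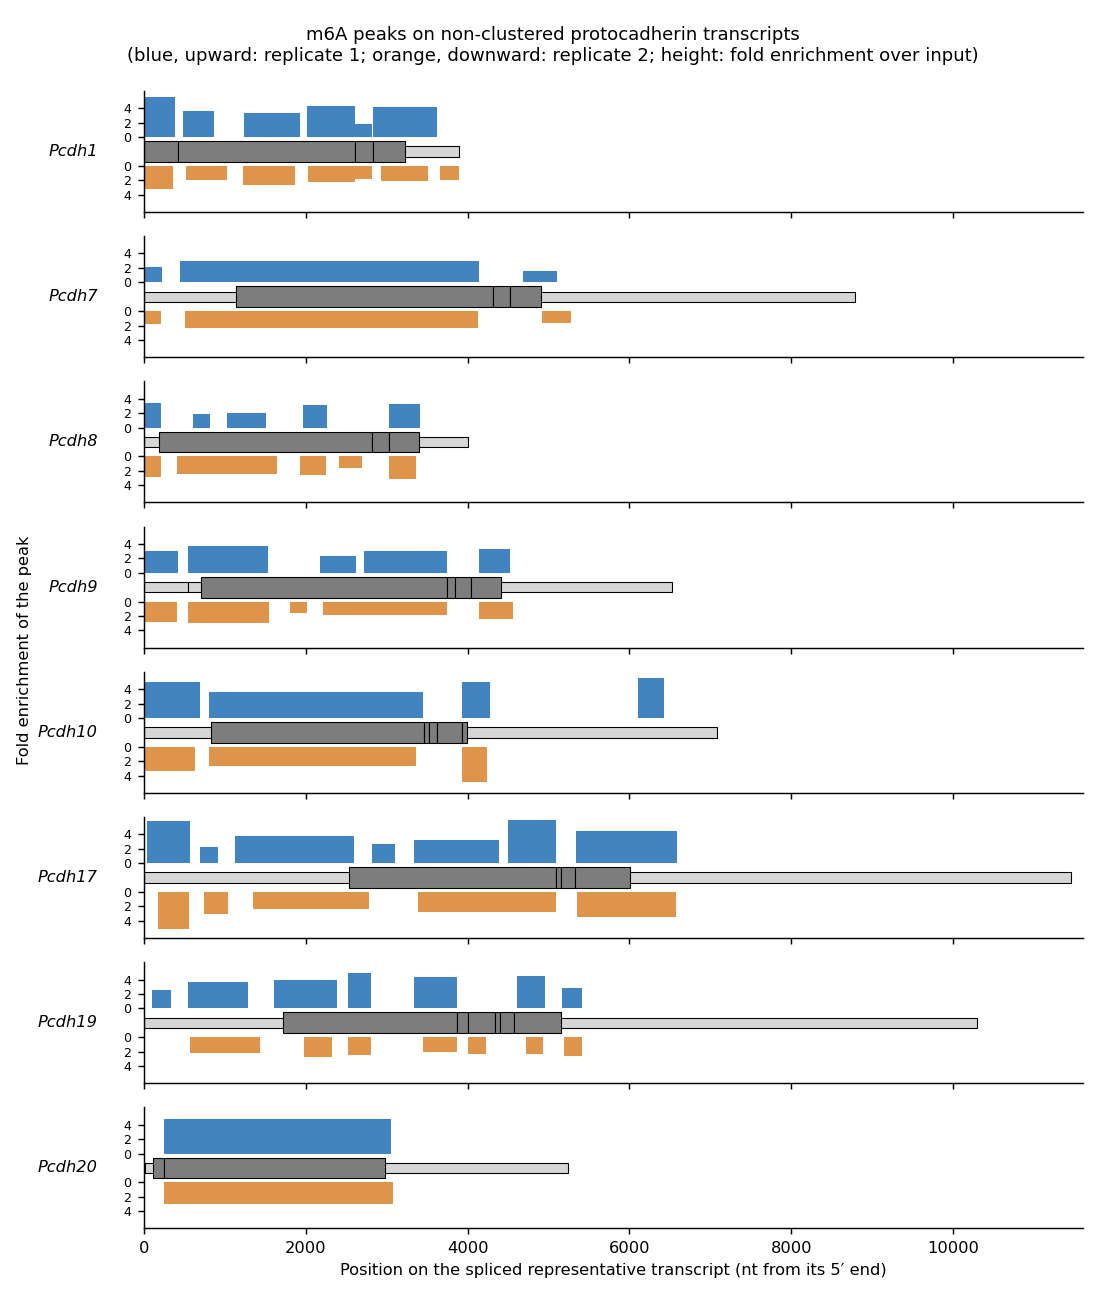
Peaks of replicate 1 (blue, upward) and replicate 2 (orange, downward) along the spliced representative transcript of each gene, in nucleotides from its 5′ end, with height giving the fold enrichment of the peak. Grey boxes are exons, thick and dark where coding; the wide peaks of Pcdh7, Pcdh10 and Pcdh20 reach 3687 bases, and in the 7 genes other than Pcdh1 most of the 3′ UTR is without peaks.

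With the exon of the start codon taken as the first coding exon, 7 of the 8 genes had a shared interval there (all but Pcdh20) and 8 of 8 had one in a later exon. Among 387 other genes whose first coding exon holds at least 1000 coding bases and which have at least 2 coding exons, 67.2% had a shared interval in the first coding exon and 61.2% in later exons. The 2 sides are not alike, because all 8 protocadherins had a shared interval but only 297 of the 387 genes did. Of these 297 genes, 260 had one in the first coding exon and 237 in later exons. Pcdh1 and Pcdh20, with 420 and 132 coding bases in that exon, also miss the size rule. First coding exons of the protocadherins held 21 shared intervals and later exons 13. Because several peaks are kilobases wide, coverage describes them better than counts. Peaks covered 77.0% of first-coding-exon bases in replicate 1 and 76.3% in replicate 2, and both did so over 68.8%. In later exons the figures were 27.5%, 26.5% and 24.0%. Taking the exon with the most coding bases instead, which moves the long exons of Pcdh1 and Pcdh20 to the first class, left 67.3% for the long exons and lowered the exons after it to 13.9%.

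The contrast was smaller within coding sequence alone. Coding bases after the exon of the start codon, which include the long exons of Pcdh1 and Pcdh20, were covered over 68.6% in replicate 1, 66.2% in replicate 2 and 62.5% in both. The coding part of the long exons was covered over 79.7% of its bases in replicate 1, 82.5% in replicate 2 and 74.7% in both. Coding sequence in the other exons was covered over 50.7%, 45.3% and 41.5%. The 3′ UTRs, which made up 23169 bases, were covered over 9.56%, 9.19% and 7.24%. The 5′ UTRs, 7238 bases in all, were covered over 78.1%, 68.7% and 64.8%. Of all covered bases in the 8 transcripts, 74.0% were coding, 19.1% lay in the 5′ UTR and 6.84% in the 3′ UTR. In the other genes with a shared interval the same shares were 59.8%, 7.07% and 33.2%. In the 489 of them with at least 2000 coding bases in one exon they were 84.8%, 2.97% and 12.2%. Beside these genes of like structure the protocadherins had a lower coding share and a higher 5′ UTR share. Such shares also depend on the length of each region. Median coverage per gene was higher in the protocadherins for coding sequence, at 71.5% against 39.8% in the 489 genes. For the 5′ UTR it was 73.9% against 0%, and for the 3′ UTR 4.83% against 7.21%.

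**Figure D2:**
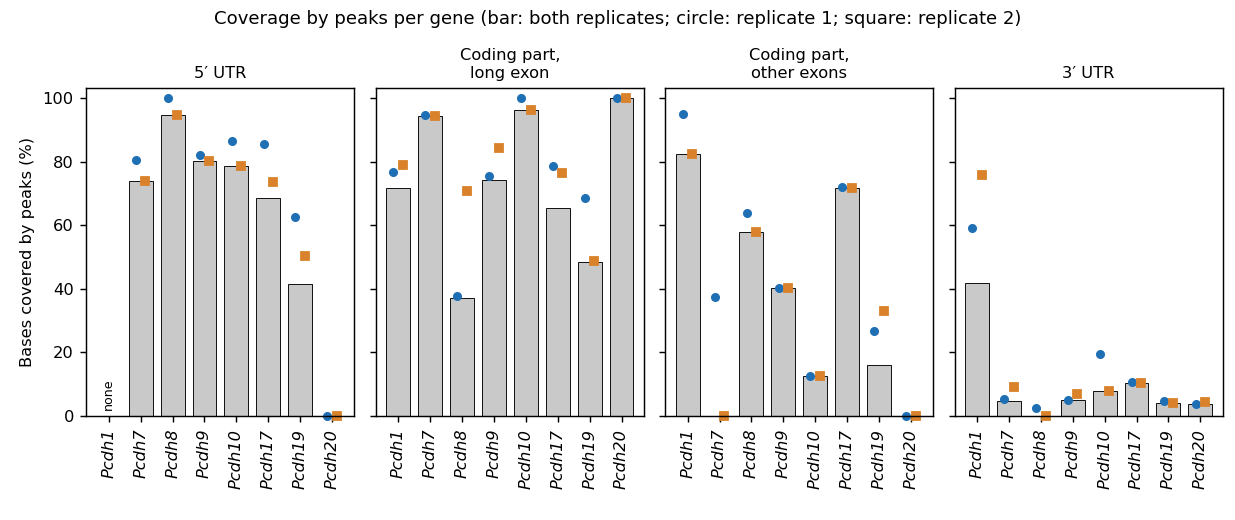
Percent of bases inside peaks for each gene, by region: grey bars for bases inside peaks of both replicates, circles for replicate 1 and squares for replicate 2. The representative transcript of Pcdh1 has no annotated 5′ UTR. In the coding part of the long exon the bars run from 37.2% in Pcdh8 to 100% in Pcdh20, and in the 3′ UTR the bars other than that of Pcdh1 lie at or below 10.5%.

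Sequences from inside the peaks are shown so that the GGAC core can be seen in its coding context. For the 3 genes with one unbroken wide peak over the ectodomain, the coding window of 120 bases inside the shared interval with the most GGACT is printed below, 5′ to 3′ on the sense strand, with every GGAC in capitals. The windows were selected for GGACT and are examples. The windows are chr5:57720779-57720898 (plus strand) in Pcdh7, chr3:45380130-45380249 (plus strand) in Pcdh10 and chr14:88467905-88468024 (minus strand) in Pcdh20, all GRCm38.
Pcdh7: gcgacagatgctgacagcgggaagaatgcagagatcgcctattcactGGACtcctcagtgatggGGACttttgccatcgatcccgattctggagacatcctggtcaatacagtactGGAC
Pcdh10: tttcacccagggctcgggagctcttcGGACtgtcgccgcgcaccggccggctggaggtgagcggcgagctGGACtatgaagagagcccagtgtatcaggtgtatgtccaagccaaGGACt
Pcdh20: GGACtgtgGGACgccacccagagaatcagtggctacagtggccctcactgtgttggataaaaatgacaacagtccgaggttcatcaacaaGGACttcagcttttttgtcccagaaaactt

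Each of these 3 windows held 3 GGAC, of which 2 in Pcdh7, 3 in Pcdh10 and 2 in Pcdh20 were GGACT. In the coding part of the long exons of all 8 genes, 33 GGACT were found on the sense strand and 32 of them lay in shared intervals, which is 2.03 per kb of covered sequence against 0.188 per kb of the 5331 uncovered bases. In the 489 other genes with a long coding exon, 978 of 1584 GGACT lay in shared intervals, at 1.43 per kb covered and 0.732 per kb uncovered. The remaining site, in Pcdh9, lay in a peak of replicate 2 but in none of replicate 1. Over whole first coding exons the density was 2.23 per kb covered and 0.686 per kb uncovered. In first coding exons of the comparison genes with a shared interval it was 1.59 and 0.877 per kb. Of all 41 GGACT in the coding sequences of the 8 genes, 39 lay in shared intervals, which held 67.6% of the coding bases. The shorter core GGAC had 7.02 sites per kb of covered and 4.12 per kb of uncovered first coding exon, and in the comparison genes 6.70 and 4.54. Pcdh19 ran the other way for GGAC in its long exon, with 3.84 per kb covered and 6.33 per kb uncovered. A match shows where the letters occur, not that the base is methylated.

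Of the 33 GGACT sites in the long exons, 10 read on as GGACTANGA or GGACTCNGG, and windows of 29 bases around sites of both kinds are printed with the extension in capitals (sense strand). The extensions were picked from this site list, so the likeness of the windows is fixed by the choice, and their frequency in other genes is given as a description. The first set is chr14:79770170-79770198 (minus) in Pcdh8, chr14:93887436-93887464 (minus) in Pcdh9, chr3:45380188-45380216 (plus) in Pcdh10, chr14:84447012-84447040 (plus) in Pcdh17 and chr14:88468359-88468387 (minus) in Pcdh20.
Pcdh8: ggctgggcaggtGGACTACGAgcgccagg
Pcdh9: ctcttctctgctGGACTATGAgggcacca
Pcdh10: gagcggcgagctGGACTATGAagagagcc
Pcdh17: taagggcaacctGGACTATGAggagaacg
Pcdh20: cacaaagcctatGGACTATGAagtgcagt
The second set is chr5:57720616-57720644 (plus) in Pcdh7, chr14:79769849-79769877 (minus) in Pcdh8, chr14:84447222-84447250 (plus) in Pcdh17 and chrX:133686781-133686809 (minus) in Pcdh19.
Pcdh7: catagtagctgtGGACTCTGGcagtccca
Pcdh8: cacctcggacagGGACTCGGGcgccaacg
Pcdh17: ggtcactgaccgGGACTCAGGcaagaatg
Pcdh19: tgcatatgacccGGACTCCGGcagctttg

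GGACTANGA occurred 5 times, once in each of 5 of the 8 long exons, and 4 of the 5 sites lay in shared intervals, the exception being that of Pcdh9. GGACTCNGG occurred 5 times in 4 genes, with 2 sites in Pcdh17, and all 5 lay in shared intervals. In the long coding exons of other genes 28 of 44 sites of the first extension and 34 of 61 of the second did. Among the 489 other genes with a shared interval and at least 2000 coding bases in their longest coding exon, 8.38% had the first extension and 11.9% the second. Of the 41 and 58 genes concerned, 23 and 15 were clustered protocadherins, which are relatives of the same fold. In 22 of the 33 GGACT sites (66.7%) the adenosine was the middle base of a codon, so that GAC, a codon for aspartate, was read in frame. The share in the 489 other genes was 49.6%.

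The delta-1 genes are described first. Pcdh7, which binds protein phosphatase and the phosphatase inhibitor Set through its tail, had the widest peak of the 8 genes. Its exon 1 on chromosome 5 carried a peak of 3687 bases with a fold enrichment of 3.003 in replicate 1 and of 3623 bases with 2.41 in replicate 2, and their overlap, chr5:57718474-57722096, took in 2992 of 3174 coding bases and 631 bases of 5′ UTR. Only 7 peaks of the whole replicate 1 list and 8 of the replicate 2 list were longer. A second interval at the very start of exon 1 had folds of 2.14 and 1.77, and one in the 3′ UTR, starting 20 nt beyond the stop codon, had 1.60 and 1.69, near the bottom of the range in both replicates. The short exon 2 had no peak. Both exon 1 intervals also overlap exons of 4932441J04Rik on the opposite strand. The peak lists give no strand, so the 2 genes cannot be told apart there.

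Pcdh9, the gene with the largest locus of the 8, had 5 peaks in each replicate. In replicate 1, 3 lay in the long exon 2 with folds of 2.35, 3.06 and 3.78, while in replicate 2 the same exon had 3 with 1.59, 1.94 and 2.91, of which the weakest had no partner. Together they covered 75.5% and 84.4% of the coding part of that exon. The shared interval nearest the start codon, chr14:93887901-93888901, spanned the last 156 bases of 5′ UTR and the first 832 coding bases. Another, chr14:93885697-93886712, ended exactly at the 3′ end of the exon and included the membrane-spanning segment. The untranslated exon 1 had folds of 2.96 and 2.85, and exon 5 had 3.32 and 2.39 over the stop codon. The short exons 3 and 4 had no peak in either replicate.

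Pcdh1, best known from airway epithelium and also made in brain, differed from the rest in that its peaks were spread over the whole transcript. It had 10 exonic peaks in each replicate, all 10 shared, the most of the 8 genes. The first coding exon had 5.50 and 3.18, the highest values of this gene. The long exon 2 had 3 intervals with folds between 3.33 and 4.33 in replicate 1 and between 1.97 and 2.64 in replicate 2. An interval over exon 3, which is 220 bases long, had 1.84 and 1.75, and one over the stop codon in exon 4 had 4.18 and 2.09. The remaining 4 intervals lay in exons of other Pcdh1 transcripts, 3 of them between 1.63 and 2.06 in replicate 1 and 1.76 and 1.94 in replicate 2. Its 3′ UTR, 658 bases in the representative transcript, was covered over 41.8% in both replicates, against 0% to 10.5% in the other 7 genes. That transcript ends at chr18:38188890, whereas the annotated gene reaches chr18:38185914. The 3 weak intervals in exons of other transcripts lie beyond this end. The value of 41.8% therefore holds for the representative transcript only. The 3′ UTR of Pcdh8 is of similar length, 599 bases, and was the one at 0%, while the 3′ UTRs of the other 6 genes are longer than 2000 bases.

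Among the delta-2 genes, Pcdh10, which recruits the WAVE complex to contacts between axons, was covered almost end to end in its first exon. The 5′ UTR interval had folds of 5.03 and 3.32. The ectodomain interval, chr3:45379235-45381783, had 3.66 and 2.72 and covered 2531 of 2631 coding bases, starting 18 bases upstream of the start codon. The highest shared value of the gene in replicate 2, 4.90 against 4.97 in replicate 1, was at the start of exon 5, where the interval began at the exon border and took in the final 68 coding bases and 245 bases of 3′ UTR. The 3 short exons in between had no peak, although 1 GGACT lies in exon 4. A peak farther down the 3′ UTR with a fold of 5.52 was called in replicate 1 alone. An interval in an exon of another Pcdh10 transcript (3.45 and 2.89) overlaps the opposite-strand gene 1700027H10Rik.

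Pcdh17, a synaptic protocadherin of corticobasal ganglia circuits, had the highest fold of the 8 genes in each replicate. In replicate 1 this was 5.94 at the 3′ end of the coding part of exon 1, closely followed by 5.84 near the transcript start. In replicate 2 it was 5.07 at the transcript start, while the 3′ end of exon 1 belonged to a wide peak of 2.74. The order of these 2 intervals therefore differed between replicates. In total exon 1 had 6 peaks in replicate 1 and 4 in replicate 2, and 65.5% of its coding part lay in both. Exon 4 had 4.49 and 3.53 over an interval of 1228 bases, chr14:84532900-84534127, that ran from 655 bases of coding sequence across the stop codon into 573 bases of 3′ UTR. Exons 2 and 3 had none.

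Pcdh19, whose loss causes an epilepsy with a distinctive inheritance and whose product works with N-cadherin, was covered in more separate pieces. Of its exon 1 peaks in replicate 1, the shared ones had folds of 3.60, 3.91, 4.42 and 4.85, and the 4 peaks of replicate 2 had 2.08, 2.22, 2.53 and one above these. Coverage of the coding part was 68.6% in replicate 1, 48.6% in replicate 2 and 48.5% in both. The last exon had 2 intervals, one ending 233 nt before the stop codon (4.47 and 2.39) and one starting 36 nt after it (2.86 and 2.64). A peak over exon 3 was called in replicate 2 alone, with a fold of 2.34. The 5′ UTR interval of exon 1 overlaps the opposite-strand gene Gm26851.

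Pcdh8, an activity-induced protocadherin that draws N-cadherin off the synapse through the kinase Taok2, had the long exon least covered by shared intervals. Peaks covered 37.8% of its coding part in replicate 1 and 70.6% in replicate 2, the largest gap between replicates among the 8 genes, and 37.2% in both. In replicate 2 alone the least covered long exon was that of Pcdh19. The long exon had 4 peaks in replicate 1, with folds from 1.91 to 3.45, and 4 in replicate 2, from 1.60 to 2.90. One replicate 2 peak bridged 2 separate peaks of replicate 1. Exon 3 had 3.22 and 3.14, close to each other, over the first 338 bases of the exon, and this interval ended 37 nt before the stop codon. One of the exon 1 intervals overlaps Gm9748 on the opposite strand.

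Pcdh20, a less studied member, had a single exonic peak in each replicate and no other. It had a fold of 4.84 in replicate 1 and 2.96 in replicate 2, began at the first base of exon 3 in the shared interval, chr14:88466925-88469730, and covered all 2724 coding bases of that exon with 82 bases beyond, the stop codon included. The exon with the start codon had no peak. In the 497 genes with a long coding exon and a shared interval, the 8 protocadherins included, no gene had a higher coverage of that exon than Pcdh20, whose value of 100% is the ceiling. Atxn1l and Tnrc6c also reached 100%.

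**Figure D3:**
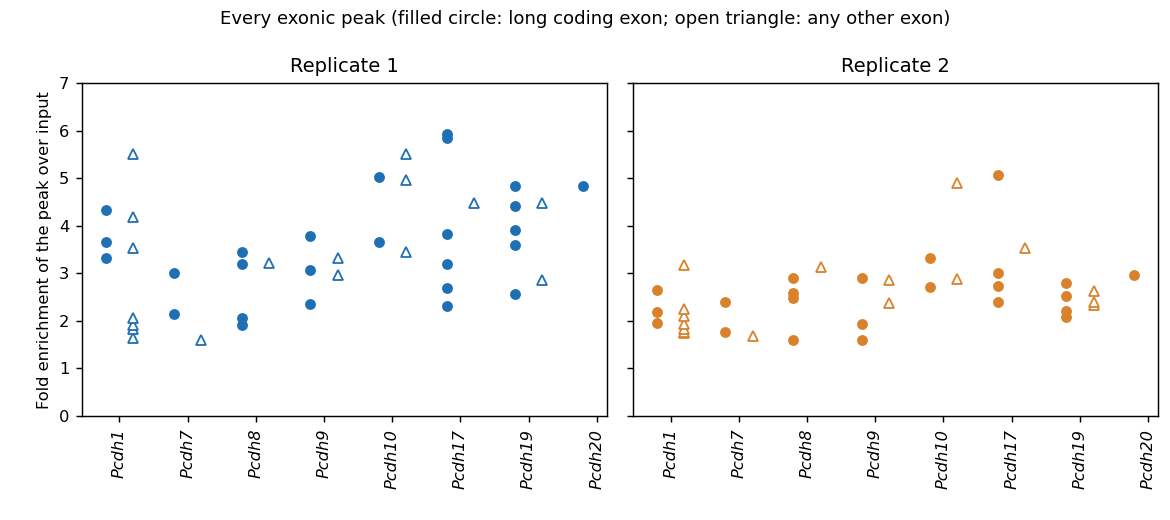
Fold enrichment over input of every exonic peak, by gene and replicate; filled circles lie in the long coding exon and open triangles in any other exon. Circles and triangles overlap in range in both replicates, and the highest point among the long exons is that of Pcdh17 in each, 5.94 and 5.07.

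Peak strength overlapped in range between the exon classes. Shared peaks in first coding exons had a median fold of 3.60 in replicate 1 (n = 21, range 1.91 to 5.94) and 2.65 in replicate 2 (n = 18, 1.77 to 5.07). Those in later exons had 3.65 (n = 13, 1.60 to 4.97) and 2.39 (n = 14, 1.69 to 4.90). The difference between classes was of opposite sign in the 2 replicates and smaller than the difference between replicates. The sign in replicate 1 depended on the exon definition, since the later class holds the long exons of Pcdh1 and Pcdh20. With the exon of most coding bases as the first class, medians were 3.62 against 3.32 in replicate 1 and 2.59 against 2.39 in replicate 2. In the comparison genes the medians were 3.55 and 2.58 for first coding exons and 3.14 and 2.35 for later exons.

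Parts of the transcript outside the long exon were described further. Internal exons that are coding throughout and below 400 bases numbered 14 in the 8 genes, and 1 of them (exon 3 of Pcdh1) met a shared interval. In other genes with a shared interval 7.13% of such exons did, so the protocadherins were near the background here. At the stop codon, a shared interval covered it in 5 of 8 genes (Pcdh1, Pcdh9, Pcdh10, Pcdh17 and Pcdh20), against 51.2% of other genes with a shared interval. In the other 3 genes an interval came within 50 bp of it, which makes 8 of 8, against 57.5% of other genes for that distance, which was set after the values had been seen.

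Placed on the protein, shared intervals covered 73.6% of the coding bases of the ectodomain, 87.5% of those of the membrane-spanning segment and 52.9% of those of the cytoplasmic tail. By replicate the tail was covered over 60.4% and 58.3%, and the ectodomain over 78.9% and 81.0%. The part of the tail that is encoded in the long exon was covered over 78.3%, so the lower figure for the tail came from the later exons. In Pcdh7 and Pcdh10 the ectodomain was covered completely in both replicates. In Pcdh8 the membrane-spanning segment lay outside the peaks of replicate 1.

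The coverage of long coding exons was then set beside that of other genes. In the 8 protocadherins the coding part of the long exon was covered over 37.2% to 100%, with a median of 72.8%. In the 489 other genes with a long coding exon and a shared interval the median was 47.5%, and the quartiles were 21.7% and 70.2%. A shared interval lay in the long exon in 8 of 8 protocadherins and in 93.9% of the other genes. At least 50% of the coding part was covered in 6 of 8, all but Pcdh8 and Pcdh19, and in 48.5% of the others, or 51.5% when clustered protocadherins were left out. By the stricter definition with the start codon, the first coding exon was at least 50% covered in 40.7% of comparison genes with a shared interval. The 6 protocadherins of that definition had a median of 71.2% and the comparison genes 39.6%. Clustered protocadherins that met the rules on coding bases and coding exons were not left out of the comparison genes. Over all 56 clustered genes the median was 21.2%. Pcdh20, Pcdh10 and Pcdh7 had 0, 9 and 17 of the 497 genes above them, whereas Pcdh8 had 300. The 8 genes were chosen with earlier results of these data known, and their high coverage did not extend to every non-clustered protocadherin. The coding part of the longest coding exon was covered over 0% in Pcdh12 and Pcdh18, 3.08% in Pcdh11x and 46.6% in Pcdh15. In Pcdh15 that exon holds only 1441 coding bases.

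**Figure D4:**
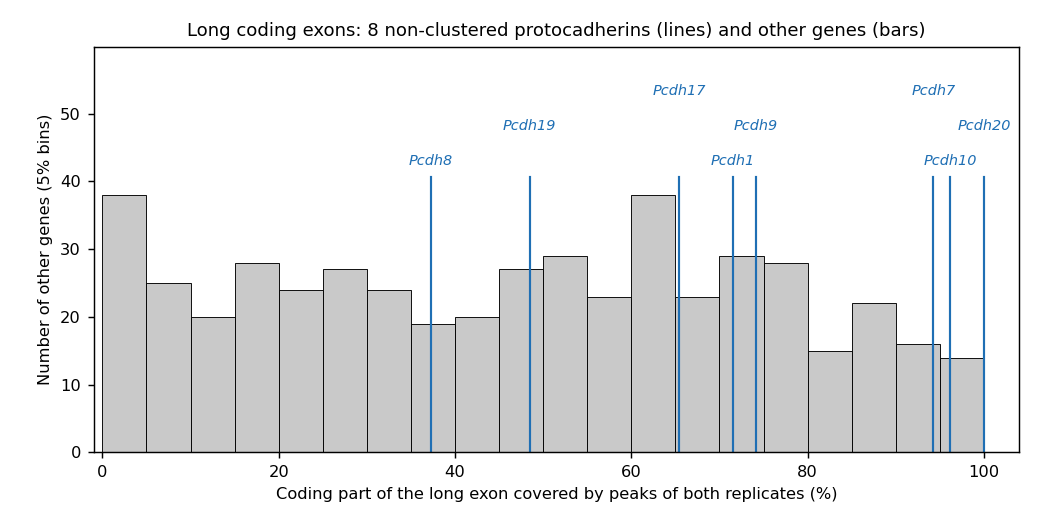
Percent of the coding part of the long exon covered by peaks of both replicates: bars count the 489 other genes with at least 2000 coding bases in one exon and a shared interval, in 5% bins, and lines mark the 8 protocadherins. The lines run from 37.2% (Pcdh8) to 100% (Pcdh20), and 6 of the 8 lie above the median of the other genes by more than 10 percentage points.

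Likeness was ranked by the count of shared intervals in a long first coding exon, which led to Tcf20 (7 intervals, 71.1% of the exon covered), Zfp646 (5, 55.6%), Mn1 (5, 40.8%), Hivep2 (5, 33.8%) and Zfp407 (5, 26.8%). By coverage the last 3 lie below all 6 protocadherins with such an exon, whose lowest value is 41.1%, so the count and the coverage rank genes differently.

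Other non-clustered protocadherins behaved less uniformly. Pcdh18, a delta-2 gene with 2487 coding bases in its first coding exon, had 2 shared intervals. Of that whole exon 5.89% was covered, but 0% of its coding part. Pcdh12, known from blood vessel walls, has 2880 coding bases in its first coding exon and had no peak in either replicate. Pcdh11x had 4 exonic peaks in replicate 1 and 1 in replicate 2, and 3.08% of the coding part of its long exon was covered by both. Pcdh15, a component of the tip links of hair cells, had 3 shared intervals with folds up to 6.07 and 3.50. Depth and expression were not given in the peak lists, so a gene without peaks and a gene with too few reads cannot be told apart. Of 56 clustered protocadherin genes, 53 had a shared interval and 46 had one in the first coding exon. Many of these genes share exons or near-identical sequence, so their intervals are not independent of each other.

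Partners of the protocadherins and the classical cadherins gave a contrast in gene structure. All 11 partners had a shared interval, 8 of them in the first coding exon, though none has a first coding exon of 1000 coding bases. Over all protein-coding genes 45.5% had a shared interval. The share with one in the first coding exon was not computed over all genes, so the first-exon counts here have no background. Taok2, the kinase downstream of Pcdh8, had 9 with folds up to 5.36 in replicate 1 and 2.94 in replicate 2. Wasf1, the WAVE subunit that drives actin branching, had 3 with up to 3.74 and 2.98, and Set had 3 with up to 5.003 and 3.06. Cyfip1, also of the WAVE complex, had 1 with 1.53 and 2.05. Of 17 classical cadherins, whose ectodomains are split over short exons, 15 had a shared interval, all 15 in later exons and 6 in the first coding exon. Cdh2 (N-cadherin) and Cdh8 had 4 each and Cdh20 had 3, the highest of the list. The median was 2 in the classical cadherins, 5 in the 8 protocadherins and 2 over all protein-coding genes with a shared interval.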

How the data were processed

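The authors isolated polyadenylated RNA, immunoprecipitated fragments with an anti-m6A antibody and prepared libraries with an Illumina mRNA kit. Reads were aligned to mm10 with TopHat2 (2.0.9 in the submitters' processing notes), and peaks were called with MACS2 for each replicate. The deposited lists hold position and fold enrichment, a linear ratio of immunoprecipitate over input. Input files were not analysed here, and depth, counts, summits and strand are unknown.

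Positions (1-based) were placed on GENCODE M21 exons, using the coding transcript with the longest coding sequence. The stop codon was counted with the 3′ UTR. Shared intervals were bases common to a peak of each replicate (overlap of at least 1 bp). Sequences came from the RefSeq GRCm38.p6 genome, in which 99.0% of annotated start codons read ATG. Python 3.11.15, pysam 0.24.0, Biopython 1.88 and bedtools 2.31.1 were used, and the overlap and placement functions were tested on simulated data. Members and gene lists were chosen with earlier results of these data known; the lists comprised other non-clustered protocadherins, partners, classical and clustered cadherins, and brain and other-organ genes. Named genes were the 8 members, the other non-clustered protocadherins, list examples and the 5 genes with most intervals in a long first coding exon. The set of long coding exons (at least 2000 coding bases) was added after gene structures had been seen. Alternatives covered overlap, a fold minimum, each replicate alone, interval placement, choice of exon and transcript, and merging of near peaks.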

Additional observations from a re-analysis of the deposited data

How the results depend on the processing

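The counts of genes and intervals with shared peaks stayed within 1.5 times of their reported values, and the median folds within the spread between replicates, under all alternatives run. For median folds that spread was wide, 0.667 in first coding exons and 0.893 in later exons, and does not resolve the order of the classes. In replicate 1 later exons had the higher median, but the lower one with the exon of most coding bases or the longest spliced transcript. Coverage and motif densities moved by more than the small spread between replicates, as follows. Requiring an overlap of 50% of both peaks gave 60.1% coverage of first coding exons, 6.44% of 3′ UTRs, and GGACT densities of 2.27 per kb covered and 0.965 uncovered. Keeping peaks of 2-fold or more gave 61.0% of first coding exons, 21.8% of later exons, 57.0% of later coding bases, 6.44% of 3′ UTRs, and 2.31 and 0.877 per kb. With the exon of most coding bases, the values were 67.3%, 13.9% of later exons, 39.0% of later coding bases, and 1.99 and 0.510 per kb. With the longest spliced transcript, later exons were covered over 20.4%, their coding bases over 58.5% and 3′ UTRs over 10.1%, with 2.19 per kb covered. Only complete coding transcripts, an alternative chosen after seeing the data because of Pcdh1, gave 22.3% of later exons, 6.08% of 3′ UTRs and 2.19 per kb. Using 1 replicate alone gave 76.3% to 77.0% of first coding exons, 26.5% to 27.5% of later exons, 66.2% to 68.6% of later coding bases, 9.19% to 9.56% of 3′ UTRs, 2.07 to 2.11 GGACT per kb covered and 0.558 to 0.723 uncovered, and 1 replicate gives no median for the other. In each alternative first coding exons were covered more than later exons, and covered sequence held more GGACT than uncovered. Merging moved no coverage. Midpoint placement could not move it, because coverage is counted by base and does not use the placement of intervals. Peak width depends on sequencing depth, which is unknown. No paired analysis was possible because the input samples came without files and no test between groups was made.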

Other observations

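Peaks within the 8 genes that touched no annotated exon numbered 34 in replicate 1 and 6 in replicate 2, and 5 in each replicate had a counterpart in the other. Pcdh9, the gene with the largest locus, held 29 of those in replicate 1 and all 6 of those in replicate 2, and the 5 with counterparts were all in Pcdh9. The exonic peaks of the same genes differed far less in number between replicates, at 43 and 40.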
